A study of Bos taurus with 27 samples.

Results

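RHOU, TUBAL3, KCNK15, CD164L2, NUAK1, DRD2, ASPHD1, DIXDC1 and NPAS1 are 9 genes that were chosen by their measured difference between the late and the early fattening stage in the rumen epithelium (RE) of Japanese Black cattle. The members were found by their gene names on a bovine oligonucleotide microarray, where each name had 1 probe, so they are 9 of 14952 gene names and 9 of 15008 probes. Because the late and early levels chose the genes, the difference between these stages (the total period) is given below as a description and was not tested. RHOU encodes an atypical small GTPase that acts on cell shape and adhesion, and TUBAL3 an alpha-tubulin-like protein of the microtubule family. KCNK15 belongs to the potassium leak channels that set the resting potential of cells, DRD2 is a dopamine receptor that lowers cyclic AMP, and CD164L2 resembles the sialomucin CD164. NUAK1 is a kinase related to AMP-activated kinase, ASPHD1 has an aspartate beta-hydroxylase domain, DIXDC1 takes part in Wnt signaling, and NPAS1 is a transcription factor of the bHLH-PAS family known from neurons.

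The stratified epithelium of the rumen absorbs the fatty acids that microbes make from feed, and a diet rich in grain changes the acids it meets. It was biopsied from the same 9 castrated, fistulated cattle at the early, middle and late stages, at 14, 21 and 29 months of age, while all of them ate concentrate with rice straw, in a ratio and composition that changed between stages. There was no group on another diet, so age, diet composition, time on the diet and stage cannot be told apart. RNA was hybridized in 1 color to 27 arrays, 9 at each stage, and a level is the log2 processed signal of a probe minus the median of its array. Arrays with the same number in their titles were taken as the same animal, which the labels do not state, so values per animal rest on this reading.

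The arrays lay on 5 slides, and the late-stage arrays were on slides 4 and 5, which held no other stage. Early arrays were scanned on day 1, middle arrays on days 1 and 2, and late arrays on days 3 (slide 4) and 4 (slide 5). The difference between late and early stages, the slide and the scan day therefore cannot be told apart. Early arrays had median signals of 34.5 to 47.5, middle arrays of 8.06 to 28.1 and late arrays of 31.4 to 45.9. The share of probes well above background ran from 68.8 to 78.1%, from 48.5 to 71.5% and from 68.4 to 73.7% in the same order. Of the 12 measured markers of stratified epithelium, all 27 arrays had 10 well above background, and the log2 of their summed signal relative to the array median ran from 11.60 to 12.04 (early), 9.93 to 12.17 (middle) and 11.78 to 12.12 (late). One protocol text in the labels names other tissues, whereas the tissue label names the RE.

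Of the 9 probes, 5 hold at least 3 runs of 3 or more guanines, a feature found in 306 of 15008 probes (2.04%), and the probes are printed here because of it. The sequences are those of the array design, written 5′ to 3′, with capitals on each guanine run, and the positions are on build UMD_3.1. In the following 5 the whole probe is given.
RHOU: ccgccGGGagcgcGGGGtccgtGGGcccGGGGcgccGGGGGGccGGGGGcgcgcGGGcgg
TUBAL3: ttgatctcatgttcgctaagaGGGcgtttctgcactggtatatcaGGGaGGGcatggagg
KCNK15: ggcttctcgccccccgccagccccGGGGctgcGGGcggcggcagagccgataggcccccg
NUAK1: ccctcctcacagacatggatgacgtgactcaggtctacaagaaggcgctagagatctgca
DIXDC1: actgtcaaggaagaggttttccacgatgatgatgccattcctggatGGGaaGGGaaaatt

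For the other 4 genes a stretch of 30 bases is shown, and runs outside it are counted in the text.
CD164L2: agagtcatgtccagctgtgcaccaccaccc
DRD2: GGGctagtGGGGGctctggcagagaaggtG
ASPHD1: GGGGtGGGGctgaGGGtGGGaactggccaG
NPAS1: GGGtGGGGaccccaaGGGGacaGGGGGcaG

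The RHOU probe lies at chr28:2177029-2177088 on the minus strand, holds 7 guanine runs and is 95% G and C, the highest share on the array. NPAS1 has 6 runs (chr18:54532729-54532788, plus strand), and ASPHD1 has 5 (chr25:26614818-26614877, minus strand). TUBAL3 (chr13:43625409-43625468, minus strand) and DRD2 (chr15:24303444-24303503, minus strand) have 3 each. KCNK15 (chr13:73872197-73872256, plus strand) has 2 guanine runs and 3 cytosine runs, and DIXDC1 has 2 guanine runs in a probe that spans 1751 bases of the plus strand (chr15:22657945-22659695) and so crosses an intron. CD164L2 also crosses one, with 859 bases on the plus strand (chr2:126491753-126492611), and neither it nor NUAK1 (chr5:69816630-69816689, minus strand) has a guanine run. The array design gives these genes by identifier, and 7 of the 9 identifiers were found in the gene table of RefSeq.

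RHOU, which steers cell shape and adhesion, had late levels far below those of the earlier stages. Its level was 4.33, 4.51 and 4.66 (lowest, median and highest of 9 cattle) at the early stage, 5.13, 5.68 and 6.72 at the middle stage, and −0.067, 0.36 and 0.75 at the late stage. The late stage did not overlap with either of the others, and on each of the 27 arrays the probe was well above background, which held for no other member. Late levels were lower than early levels by a log2 difference of −4.12 ± 0.14 (SE, n = 9), 17.4-fold, the lowest value of all 15008 probes. The difference in single cattle ran from −4.58 to −3.58.

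TUBAL3 had levels of −0.37, −0.15 and 0.46 at the early stage, 0.40, 0.75 and 1.54 at the middle stage, and −5.08, −4.43 and −2.74 at the late stage. It was well above background on all 9 arrays of each of the first stages and on 0 of 9 late arrays, so that its late level is only a bound. The late level lay at least 6.90-fold below the early level and at least 13.4-fold below the middle level, with measured differences of −4.08 ± 0.22 and −5.03 ± 0.22. The late minus early value was the second lowest of all probes, and it was negative in 9 of 9 cattle. A bound was computed from the mean of the brighter stage against, on each dim array, the higher of the lowest signal of any probe well above background and the signal of the probe itself.

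DRD2, the dopamine receptor, had levels of −0.65, −0.29 and 0.64 at the early stage, −0.29, 0.57 and 1.45 at the middle stage, and −4.65, −3.74 and −2.86 at the late stage. One late array measured it well above background, against 9 of 9 at each earlier stage. The measured late minus early difference was −3.68 ± 0.24, the fourth lowest of all probes, against late signals that were mostly near background, and it was −0.67 with the background correction described below. Dopamine receptors are best known from neurons, and of 10 measured neuronal and neuroendocrine markers only SYP, TUBB3 and SNAP25 were measured well above background everywhere. Early arrays had a log2 of the summed signal of these 10 markers, relative to the array median, of 3.41 to 3.88, middle arrays of 3.92 to 4.66 and late arrays of 3.90 to 4.50, with 1 of 10 higher (SYP) and 2 lower (CHGA and UCHL1) during the total period by limma. Of all probes 11.2% were higher and 8.93% lower by the same test. The part of such cells in the DRD2 and NPAS1 values was not tested, and in a biopsy fewer cells of a type and less RNA per cell cannot be told apart.

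ASPHD1 had levels of −2.60, −1.70 and −1.37 at the early stage, −0.85, −0.27 and 1.01 at the middle stage, and −5.25, −4.56 and −4.01 at the late stage. No early animal was as low as any late animal, and the numbers of arrays well above background were 8, 8 and 0 of 9. The late minus early difference was −2.69 ± 0.20, with a bound of at least 2.09-fold, and the late level lay at least 6.39-fold below the middle level. With the background correction described below, late minus early was −0.25 and late minus middle −0.65.

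NPAS1, the transcription factor, had levels of −2.71, −2.27 and −1.70 at the early stage, −1.38, −1.02 and −0.29 at the middle stage, and −5.13, −4.39 and −2.79 at the late stage. The lowest early and the highest late animal were only 0.078 apart. The probe was well above background on 7, 8 and 1 of 9 arrays, and its late minus early difference was −1.70 ± 0.24, with 88 probes at that value or lower.

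DIXDC1 stood apart from the other genes in that both its early and its late signals were mostly near background. The late signals of TUBAL3, DRD2, ASPHD1 and NPAS1 and the early signals of NUAK1 were so as well, but each at only 1 of these stages. Its level was −3.62, −3.19 and −1.98 at the early stage, −2.20, −0.85 and 0.038 at the middle stage, and −5.09, −4.57 and −2.32 at the late stage. It was well above background on 1, 7 and 1 of 9 arrays, and the early and late ranges overlapped. The late minus early difference was −1.15 ± 0.34, and 8 of 9 cattle were lower, whereas animal 9 was higher by 0.87. These data show a level at the middle stage above both others more plainly than a lasting late change.

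Late levels were higher for 3 genes, and KCNK15 was the highest of all 15008 probes in this difference. Its level was −1.32, −0.999 and −0.75 at the early stage, −0.69, −0.046 and 0.55 at the middle stage, and 2.46, 2.64 and 3.37 at the late stage. Each stage lay above the one before with no overlap, and 9, 8 and 9 arrays were well above background. The late minus early difference was 3.85 ± 0.13, a fold change of 14.4, and was positive in 9 of 9 cattle (3.45 to 4.45).

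CD164L2 levels were −1.87, −1.46 and −1.33 at the early stage, −1.50, −1.07 and −0.11 at the middle stage, and −0.77, 0.82 and 1.85 at the late stage. The late levels spread more among cattle (SD 0.97) than the early levels (SD 0.19), and they overlapped with the middle stage but not with the early stage. The probe was well above background on 9, 7 and 9 arrays. Late minus early was 2.24 ± 0.29, the third highest of all probes, with values of 0.76 to 3.31 in single cattle. The fourth highest was FERMT3 at 2.15.

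NUAK1 had levels of −5.21, −4.80 and −2.60 at the early stage, −3.91, −2.95 and −1.99 at the middle stage, and −2.59, −2.15 and −1.65 at the late stage. It was well above background on 1, 0 and 9 of 9 arrays, and the early and late ranges were only 0.011 apart. The measured late minus early difference was 2.28 ± 0.29, the second highest of all probes, but it is set against early signals at background. No fold is given, since the early level was measured on 1 array only and the bound against the middle stage came out below 1, and the difference was 0.14 with the background correction described below. The 1 early array on which it was measured was that of animal 9, on slide 2.

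**Figure D1:**
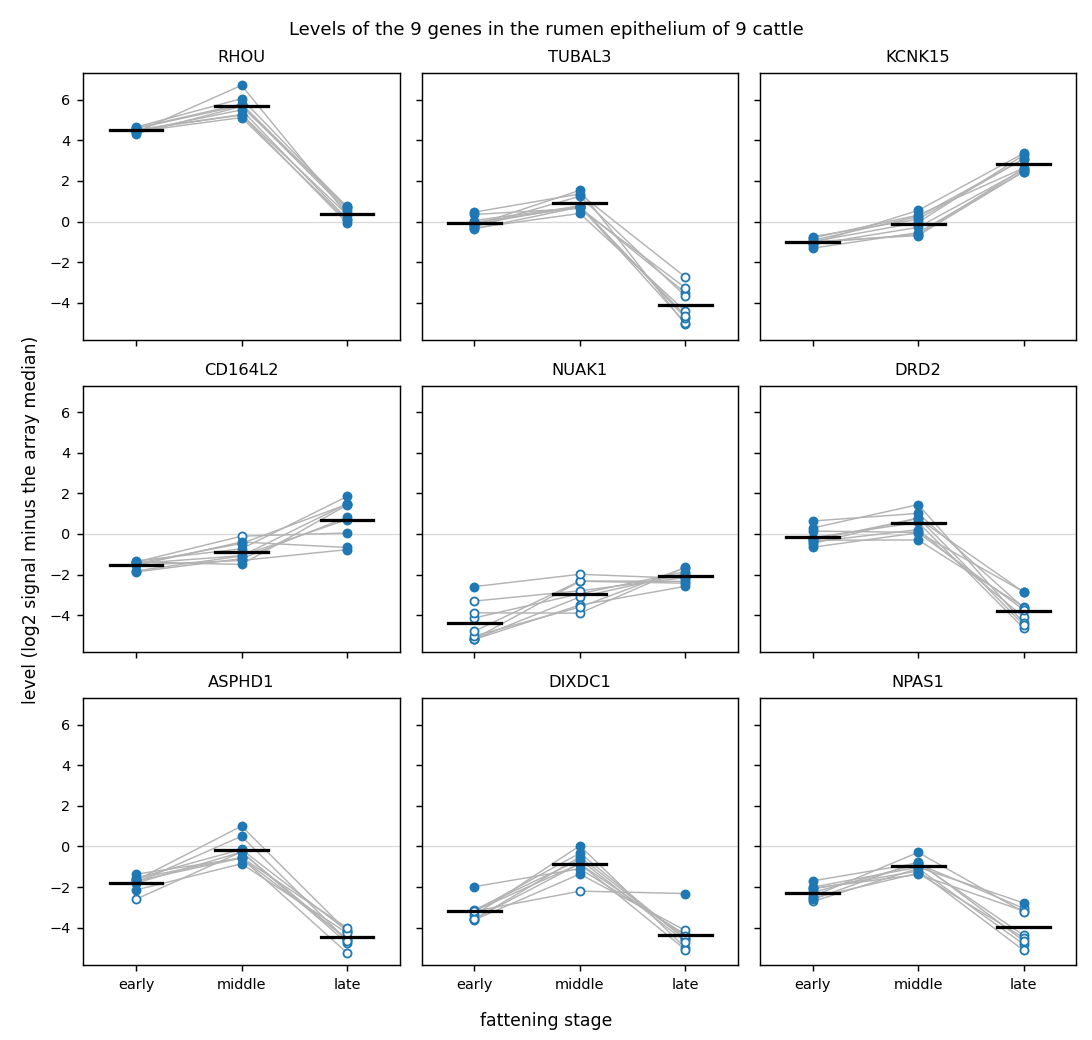
Level (log2 signal minus the array median) of each gene at the early, middle and late stage, with 1 gray line per animal (9 cattle). Filled points were well above background and open points were not; black bars are stage means. Means of RHOU, TUBAL3, DRD2, ASPHD1, DIXDC1 and NPAS1 peak at the middle stage and are lowest at the late stage, while KCNK15, CD164L2 and NUAK1 are highest at the late stage.

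Ranges of the early and late stage did not overlap for 8 of the 9 genes, against 6.55% of all probes, a count that follows from how the genes were chosen. Over all probes the median late minus early difference was 0.03, and 4.44% of probes were past 2-fold. At some stage, 6 of the 9 genes were well above background on all 9 arrays, while ASPHD1, DIXDC1 and NPAS1 were not.

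The stage at which each gene changed was read from both periods side by side. During the first period (middle minus early) all 9 values were positive, at 1.18 ± 0.14 for RHOU, 0.95 ± 0.22 for TUBAL3, 0.90 ± 0.13 for KCNK15, 0.66 ± 0.29 for CD164L2, 1.42 ± 0.29 for NUAK1, 0.65 ± 0.24 for DRD2, 1.61 ± 0.20 for ASPHD1, 2.34 ± 0.34 for DIXDC1 and 1.30 ± 0.24 for NPAS1. The median over all probes was itself 0.32, so a level relative to the array median rose for many probes at once. The processed signal before scaling shows this, since the median RHOU signal was 914 at the early and 902 at the middle stage, and that of TUBAL3 35.7 and 37.0. That of KCNK15 was 20.3 and 15.6, lower at the middle stage although its level was higher. The signals of DRD2 (34.7 and 23.1) and CD164L2 (13.1 and 10.5) were lower at the middle stage as well. DIXDC1 signal, in contrast, was 4.11 and 9.49.

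During the second period (late minus middle), RHOU differed by −5.30 ± 0.14, TUBAL3 by −5.03 ± 0.22, DRD2 by −4.33 ± 0.24, ASPHD1 by −4.30 ± 0.20, DIXDC1 by −3.49 ± 0.34 and NPAS1 by −3.01 ± 0.24, each in 9 of 9 cattle. The 3 other genes differed upward, KCNK15 by 2.95 ± 0.13 in 9 of 9 cattle, CD164L2 by 1.58 ± 0.29 in 8 of 9, and NUAK1 by 0.86 ± 0.29 in 6 of 9. All 6 genes that were lower at the late stage thus had a mean level above their early mean at the middle stage, and the whole of the lower level was reached in the second period. Of the rise from early to late, the first period held 23.3% for KCNK15 and 29.3% for CD164L2 on this scale. These shares depend on the scaling, since the median signal of both genes before scaling was lower at the middle than at the early stage. With scaling by GC content, described below, KCNK15 differed by 0.32 in the first and 3.81 in the total period. CD164L2 differed by 0.53 and 2.17. No share is given for NUAK1, which was well above background on 1 of 9 early and 0 of 9 middle arrays. The median signal before scaling went from 902 to 49.4 for RHOU and from 15.6 to 253 for KCNK15 between the middle and late stages.

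The middle stage on its own did not enter the choice of the late minus early difference, so its place was tested as the middle level minus the mean of the early and late levels, a contrast orthogonal to the one that chose the genes. A gene with a large late minus early difference that arises in 1 period lies far from the midpoint. The ranks and shares below are therefore not independent of how the genes were chosen. RHOU and TUBAL3 also stood in lists that used the other comparisons, so their values here are a description. By limma with Benjamini-Hochberg adjustment over all 15008 probes, 6 of the 9 genes lay above that midpoint, against 47.7% of all probes. Below it lay 1 of 9, against 25.4%. RHOU and TUBAL3 are among the 6, and no *P* is given for them. RHOU lay above by 3.24 ± 0.12, the second highest of all probes. TUBAL3 lay above by 2.99 ± 0.19 and ASPHD1 by 2.96 ± 0.17 (adjusted *P* = 1.42e-10, limma), at ranks 4 and 7. For DIXDC1 the value was 2.91 ± 0.30 (adjusted *P* = 1.06e-07, limma), for DRD2 2.49 ± 0.21 (adjusted *P* = 1.04e-08, limma) and for NPAS1 2.15 ± 0.21 (adjusted *P* = 6.7e-08, limma), at ranks 10, 27 and 88.

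KCNK15 was the gene below the midpoint, by −1.03 ± 0.11 (adjusted *P* = 1.98e-07, limma), so that its second-period change was larger than its first. For CD164L2 the value was −0.46 ± 0.25 (adjusted *P* = 0.0975, limma) and for NUAK1 0.28 ± 0.25 (adjusted *P* = 0.314, limma). Neither passed the threshold, which does not show that they changed evenly, and with the normexp correction described below NUAK1 lay above by 0.24 (adjusted *P* = 0.00378, limma). NUAK1 was well above background on 1 early and 0 middle arrays, so its place against the midpoint rests on signals at background. The 7 genes that passed had the same sign in 9 of 9 cattle. For those other than RHOU and TUBAL3 the exact sign-flip *P* was 0.0039, the smallest that 9 cattle allow. The median of all probes in this contrast was 0.30, and it moved to 0.42 with scaling to the 75th percentile and to 0.067 with quantile normalization, under both of which the 7 genes kept their side.

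**Figure D2:**
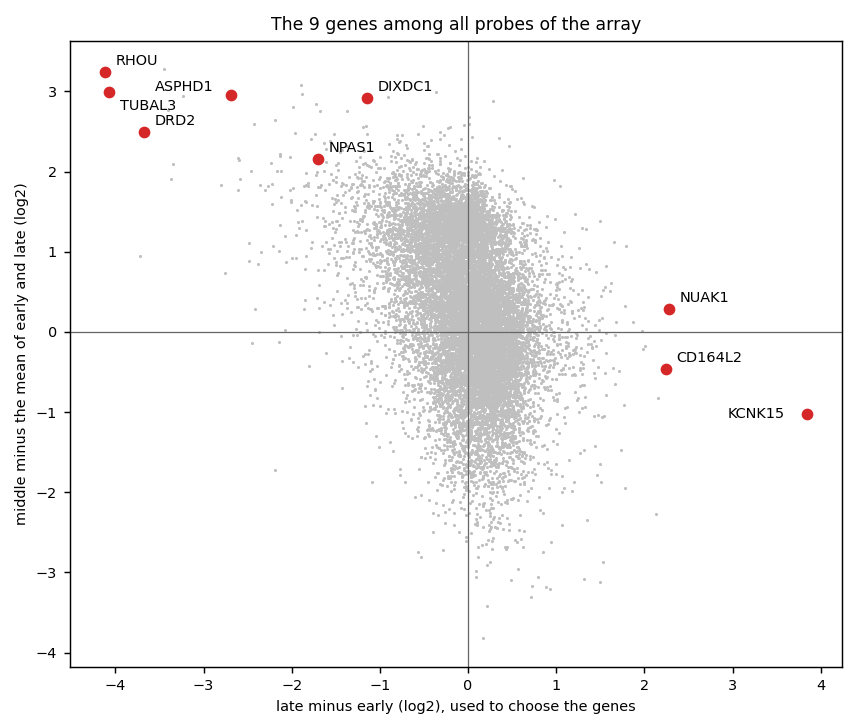
Each gray point is 1 of 15008 probes, with late minus early (log2) on the horizontal axis and middle minus the mean of early and late (log2) on the vertical axis; the 9 genes are red. RHOU (−4.12, 3.24) and TUBAL3 (−4.08, 2.99) lie at the upper left, and KCNK15 (3.85, −1.03) lies alone at the right.

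Slides offer a partial check of these values. Late animal 9 was alone on slide 5, which was also scanned on a day of its own. Its level lay inside the range of the 8 animals on slide 4 for TUBAL3, KCNK15, CD164L2, NUAK1 and DRD2. It lay outside that range for RHOU, ASPHD1, DIXDC1 and NPAS1. For RHOU the value was 0.75 against −0.067 to 0.70 on slide 4, and the late minus early difference was −3.58 in animal 9 and −4.19 over the other 8. Slide 2 held 1 early and 7 middle arrays, and the first-period difference within it was 1.38 for RHOU, 0.62 for TUBAL3, 0.81 for KCNK15, 0.34 for CD164L2, 0.74 for DRD2, 1.35 for ASPHD1, 2.48 for DIXDC1 and 1.13 for NPAS1. NUAK1 alone had a negative value there, −0.58. No slide held both an early and a late array, or both a middle and a late array.

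Across all probes the late minus early difference moved with the number of guanine runs in the probe, a feature noticed after the values were seen. With the 9 genes left out, the median difference was 0.08 over 8864 probes with no run, −0.0067 over 4611 with 1, −0.091 over 1223 with 2, −0.27 over 243 with 3, −0.32 over 45 with 4 and −0.88 over 13 with 5 or more. The share of probes at least 2-fold lower was 1.92, 3.40, 6.46, 10.3, 15.6 and 38.5% in the same order. At least 2 guanine runs, which 10.2% of all probes have, are in 6 of the 6 genes that were lower at the late stage and in 1 of the 3 that were higher. At least 3, which 2.04% have, are in 5 of 6 and 0 of 3.

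Only 3 probes of the array have 6 or more guanine runs, those of RHOU, NPAS1 and ZNF784, and RHOU and NPAS1 were chosen for their late levels. ZNF784, which was not among the chosen genes, had a late minus early difference of −2.23. Cytosine runs went the other way, since the share of probes at least 2-fold higher was 0.731% with no cytosine run and 4.58% with 3. Among probes that all 27 arrays measured well above background the pattern with guanine runs remained, with medians of 0.19 for no run and −0.21 for 3 runs. The part of guanine runs in the members' values was not tested beyond the scaling below.

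**Figure D3:**
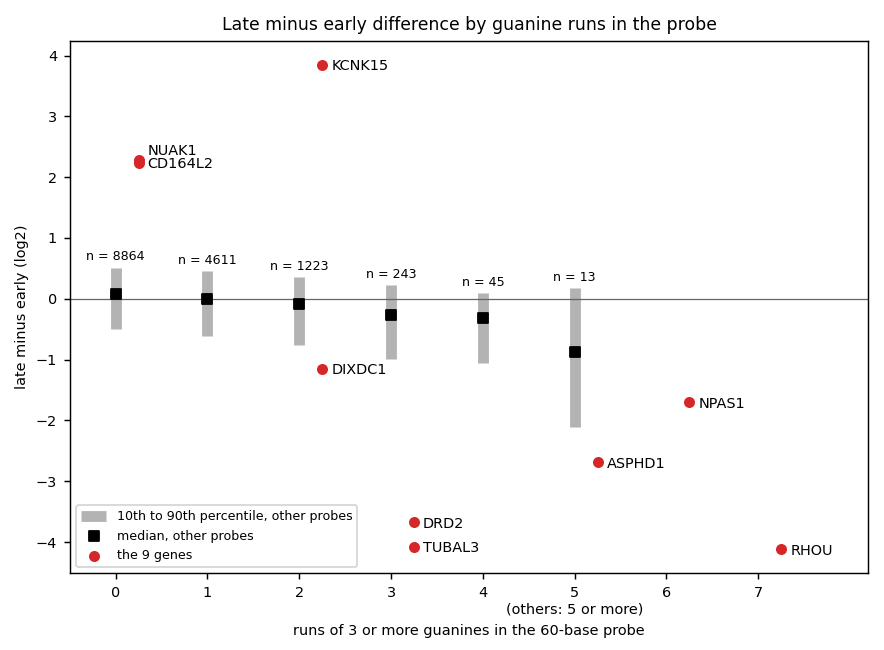
Late minus early (log2) against the number of runs of 3 or more guanines in the probe. Black squares are medians and gray bars the 10th to 90th percentile of the probes other than the 9 genes, with their number above; red points are the 9 genes at their own number of runs. Medians go from 0.08 with no run to −0.88 with 5 or more, and the 6 genes with lower late levels lie below them at 2 to 7 runs.

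The same feature separated the arrays of the 3 stages. The median level of 301 probes with at least 3 guanine runs, minus that of 8864 probes with none, lay between 0.74 and 0.98 on the early arrays, 1.04 and 1.33 on the middle arrays and 0.22 and 0.45 on the late arrays, and the 3 ranges did not overlap. The 9 genes are left out of both sets. The order, highest at the middle and lowest at the late stage, was that of the 6 genes that were lower at the late stage. On slide 2 the single early array had a value of 0.98, and the 7 middle arrays had 1.04 to 1.33. Each array was then scaled within classes of guanine-run number, an alternative chosen after seeing the data. Probes with 4 or more runs formed 1 class, which held RHOU, NPAS1 and ASPHD1. Other probes of this class had a median late minus early difference of −0.32 with 4 runs and −0.88 with 5 or more. For these 3 genes the scaling therefore did not equalize the number of runs. RHOU was at −3.65, TUBAL3 at −3.67, DRD2 at −3.28, ASPHD1 at −2.22, NPAS1 at −1.23, DIXDC1 at −1.11 and KCNK15 at 3.88 for late minus early, and the 7 genes that had passed the midpoint test passed it again. Distances above the midpoint were smaller, at 2.28 for RHOU, 2.51 for TUBAL3 and 2.77 for DIXDC1. They were 2.01 for DRD2, 2.00 for ASPHD1 and 1.19 for NPAS1 (adjusted *P* = 6e-05, limma). First-period values were smaller too, at 0.46 for RHOU, 0.37 for DRD2, 0.89 for ASPHD1 and 0.58 for NPAS1, and that of RHOU was 0.61 with scaling by GC content.

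**Figure D4:**
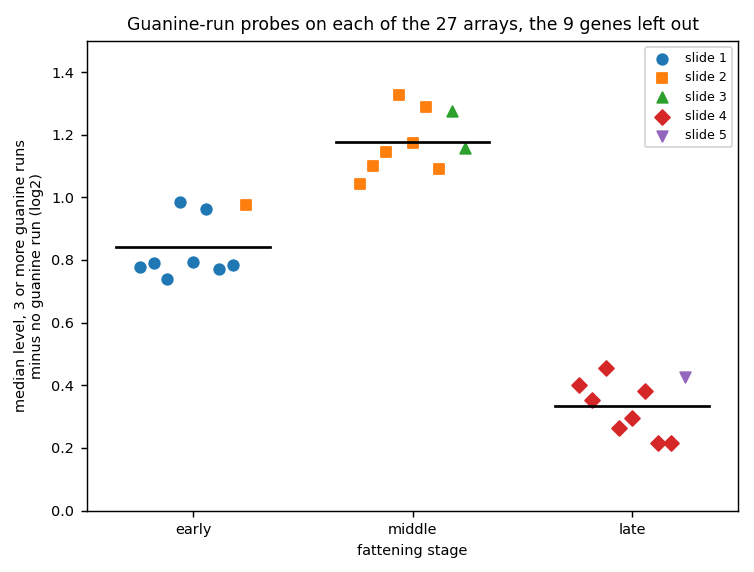
Median level of probes with at least 3 guanine runs minus that of probes with none (log2), 1 point per array, with shape and color for the slide and bars for stage means; the 9 genes are left out. Early arrays lie at 0.74 to 0.98, middle arrays at 1.04 to 1.33 and late arrays at 0.22 to 0.45.

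The background correction had more effect on the dim genes than any scaling tried. With normexp and an offset of 50, which draws dim signals together, late minus early was −2.77 for RHOU and 2.11 for KCNK15, and the remaining values were 0.85 for CD164L2, 0.14 for NUAK1, −0.67 for DRD2, −0.63 for TUBAL3, −0.25 for ASPHD1, −0.13 for NPAS1 and −0.12 for DIXDC1. RHOU stayed the lowest of all probes and KCNK15 the second highest, whereas 4665 probes were at the rank of NUAK1 or above.

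**Figure D5:**
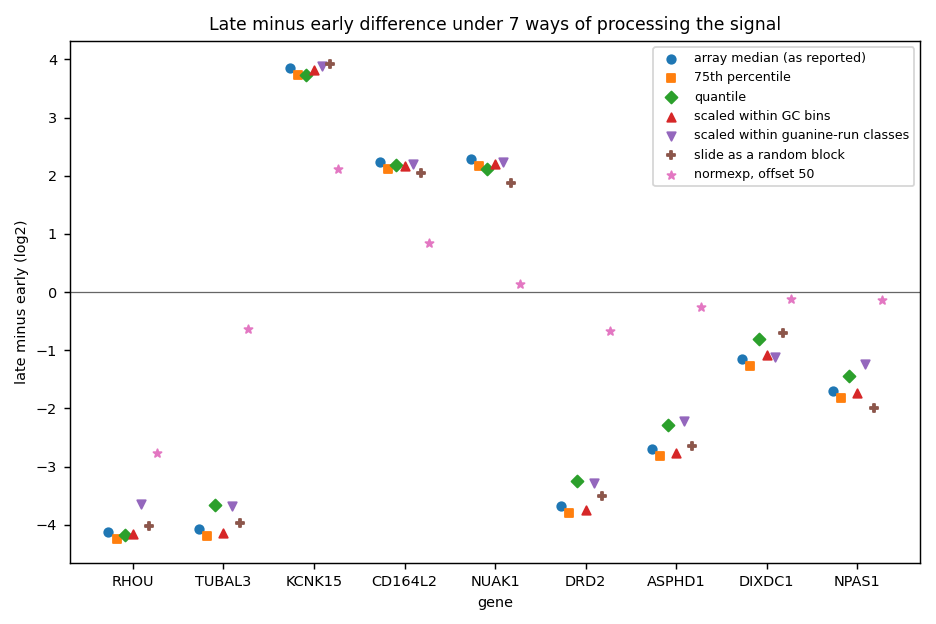
Late minus early (log2) of each gene under 7 ways of processing the signal, 1 symbol per way. Every value keeps its sign; the pink stars (normexp with an offset of 50) lie nearest to 0, at 0.14 for NUAK1 and −0.12 for DIXDC1.

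The genes whose pattern was most like that of each member were found by the root mean square difference in level over the 27 arrays, with each probe centered on its own mean, among 10119 probes. A median probe was 2.39 away from RHOU. PRRX1 was the nearest to RHOU at 0.49 and TPM1 followed at 0.55, and their own probes hold 4 and 2 guanine runs. HMGB1 (0.75, 5 runs) and TPM1 (0.77) were nearest to TUBAL3, and STMN4 (0.54, 1 run) and TPM1 (0.70) to DRD2. DHTKD1 (0.43, 1 run) and LRFN2 (0.46, 1 run) were nearest to ASPHD1. FNDC5 (0.59, 1 run) and FARP2 (0.62, 0 runs) were nearest to DIXDC1, and SLC1A7 (0.49, 2 runs) and KCNQ3 (0.56, 2 runs) to NPAS1.

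FERMT3 was nearest to both KCNK15 (0.75) and CD164L2 (0.61), followed by ABHD15 (0.90) and SERPINA3-6 (0.61). SERPINA3-6 (0.64) and PDZK1IP1 (0.64) were nearest to NUAK1. The probes of FERMT3, ABHD15, SERPINA3-6 and PDZK1IP1 hold 1 guanine run each. Among the members themselves RHOU and TUBAL3 were 0.58 apart, RHOU and ASPHD1 0.71, and CD164L2 and NUAK1 0.79.

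The families of the 9 genes were examined for the same periods through lists of 167 related genes, of which 145 were measured. During the total period 11 of them (7.59%) rose and 14 (9.66%) fell by limma, against 11.2% and 8.93% of all probes, and 6 changed by at least 2-fold. During the first period 54 (37.2%) rose and 32 (22.1%) fell, against 45.3% and 21.3%, and during the second period 45 (31%) rose and 50 (34.5%) fell, against 27% and 44.6%. The median total difference over the lists was 0.02, against 0.03 over all probes. With the slide as a random block, 0 of the 145 rose during the total period (8 at an unadjusted *P* below 0.05) and 2 fell, TUBA1D among them.

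Of 18 measured tubulins 1 rose (5.56%) and 5 fell (27.8%) during the total period, against 11.2% and 8.93% of all probes. TUBA1D fell by 3.35 ± 0.39 on the log2 scale (adjusted *P* = 6.77e-06, limma), and its probe holds 3 guanine runs, as does that of TUBAL3. Alpha-tubulin genes are close in sequence, so that a probe may bind several of them. TUBA4A rose by 0.37 ± 0.13 (adjusted *P* = 0.049, limma), while TUBB1 and TUBB2B fell by 1.03 and 0.64. TUBB4A and TUBA8 also passed as lower but were well above background on only 1 and 0 late arrays.

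Of 13 measured potassium leak channels, the family of KCNK15, 3 rose (23.1%) and 2 fell (15.4%), against 11.2% and 8.93% of all probes. KCNK9, whose product is closely related to that of KCNK15, rose by 1.12 ± 0.15 (adjusted *P* = 2.52e-05, limma) in 9 of 9 cattle, and KCNK3 of the same subfamily rose by 0.64. KCNK2 was higher by 1.01 but dim. KCNK13 fell by 0.48 ± 0.14 on the log2 scale (adjusted *P* = 0.0206, limma), and KCNK1 fell by 0.47.

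AMPK-related kinases, the family of NUAK1, had 2 of 18 that rose (11.1%) and 2 that fell (11.1%), against 11.2% and 8.93% of all probes. MARK1 rose by 0.45 ± 0.15 (adjusted *P* = 0.042, limma) and PRKAB1 by 0.45, while MARK4 fell by 0.82 ± 0.16 on the log2 scale (adjusted *P* = 0.001, limma) and PRKAA1, a catalytic subunit of AMP-activated kinase, by 0.37. Of 15 dopamine signaling genes and 5 sialomucins, 0 passed the threshold during the total period by limma, while 6 and 1 had an unadjusted *P* below 0.05, and the methods' paired test with adjustment called 3 and 1.

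Of 14 dioxygenases that use 2-oxoglutarate, listed with ASPHD1, the oxygen sensor EGLN1 rose by 0.69 ± 0.15 (adjusted *P* = 0.0027, limma). HIF1AN fell by 0.57 ± 0.19 on the log2 scale (adjusted *P* = 0.0432, limma), but its probe holds 3 guanine runs and the value was −0.17 when arrays were scaled by guanine-run class. In the Wnt list around DIXDC1, 1 of 24 genes rose (4.17%) and 2 fell (8.33%), against 11.2% and 8.93% of all probes. The receptor FZD3 rose by 0.68 ± 0.21 (adjusted *P* = 0.0299, limma), whereas the co-receptor LRP5 fell by 0.84 ± 0.16 on the log2 scale (adjusted *P* = 0.000852, limma) and AXIN2, a target and inhibitor of the pathway, by 0.60. Of 13 bHLH-PAS factors only ARNT2 passed (7.69%), lower by a log2 difference of −0.80 and dim at all stages.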

How the data were processed

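RNA of 27 RE biopsies, from 9 cattle at 3 stages, was measured on 1-color arrays. The authors labeled it with cyanine 3, and the deposited intensity of a spot is the processed signal of Agilent Feature Extraction after background subtraction (version 11.0.1.1 in the output, 9.5 in the methods). The authors also deposited log2 values, the series matrix, whose column medians run from −3.07 to −2.60. Each column is the log2 signal set to near the 75th percentile of its array, to within 0.0207, and it served as an alternative.

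Of 15110 spots other than controls, spots of the same probe were averaged to 15008 probes. The array median of log2 processed signal was subtracted, outlier spots were left missing and saturated spots kept. Stage means and animals were fitted in R 4.3.3 with limma 3.58.1, statmod 1.5.0 and Benjamini-Hochberg adjustment at 0.05. Arrays were paired by the number in the sample titles, since the same 9 cattle gave all stages. The labels do not state that a number is the same animal at each stage. The mean correlation of deviations was 0.158 within and −0.020 between animals paired in this way. On simulated data with 14954 probes, 81.0% of midpoint differences of size 1 and all of size 2 were recovered, with 2.69% of calls false. The simulation changed 200 probes and had no slide effect and no signal floor, whereas 10965 probes were called on the real arrays. Its rates therefore describe the fit under those settings and not the error in these data.

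The members, the lists of related genes and the 7 marker lists were chosen with earlier results of these data known. Named genes are the 9 members, per list the most raised and the most lowered gene that passed the threshold and that all 9 arrays of a stage measured well above background, and per member the 2 genes nearest in pattern. Other genes were named after their values had been seen, and the genes of 1 list are counted in the totals but not reported singly here. Marker lists cover stratified epithelium, fibroblasts, smooth muscle, endothelium, leukocytes, red blood cells and neurons. Over the total period the numbers higher and lower were 1 and 1 of 7 fibroblast, 0 and 0 of 5 smooth muscle, 0 and 2 of 5 endothelial, 0 and 2 of 6 leukocyte, 0 and 1 of 3 red blood cell and 0 and 1 of 12 epithelial markers. Of all probes 11.2% were higher and 8.93% lower.

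As alternatives, arrays were scaled to the 75th percentile or by quantiles, background was corrected by normexp with an offset of 50, dim probes were removed, outlier spots were kept, and the series matrix was used. Further fits had no animal block, had slides as a random or a fixed effect, used slide 2 alone or left out each animal, and the methods' paired test and an exact sign-flip test were run. Scaling within bins of GC content and within guanine-run classes was added after seeing the data. The number of arrays limits the precision.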

Additional observations from a re-analysis of the deposited data

Results flagged for a closer look

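In 2 of the 27 groups of 9 levels (9 genes at 3 stages), 1 animal lay far from the others, where chance sets about 1 in 20 such groups apart. Both concerned DIXDC1. At the early stage animal 1 had a DIXDC1 level of −1.98, and the next animal was at −3.13, a gap of 0.70 of the whole range. At the late stage animal 9 had a level of −2.32, with the next animal at −4.15, a gap of 0.66 of the range. These were also the only arrays of their stages on which the DIXDC1 probe was well above background, and late animal 9 was the only array on slide 5. Without animal 9 the late minus early difference of DIXDC1 was −1.40, and with all animals it was −1.15.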

How the results depend on the processing

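Signs of the members' late minus early and late minus middle differences were the same under every alternative run except for NUAK1, whose late minus middle value was −0.18 with normexp. Its middle minus early value was −0.49 where slide was a fixed effect and −0.58 within slide 2, and its distance from the midpoint was −0.51 with quantile normalization. In all 4 cases the cause was not tested. Without dim probes 3 members lay above the midpoint in place of 6, because ASPHD1, DIXDC1 and NPAS1 were removed. With normexp 7 lay above (NUAK1 added). With scaling by GC bins 2 lay below in place of 1 (CD164L2 added, adjusted *P* = 0.0474, limma), and with each animal left out 6 lay above and 1 to 2 below, with 2 without animal 7 or animal 9. Without the replicate block of animals the same 6 and 1 members were counted, and 2753 probes in place of 3019 were called for the total period. Over all alternatives the adjusted *P* of CD164L2 ran from 0.0272 to 0.466 and that of NUAK1 from 0.00378 to 0.71 (limma).

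For the related genes, the first-period count of 54 higher was 34 with quantile normalization, 31 without dim probes, 33 with slides as a random block and 0 with slides fixed, where the 32 lower also became 0 and 1 probe of the whole array was called (2652 at an unadjusted *P* below 0.05). In the second period 28 in place of 45 were higher with random slide effects, and 28 in place of 50 lower without dim probes. In the total period 0 and 29 in place of 11 were higher with random slide effects and by the methods' paired test, and 5 and 2 in place of 14 lower with normexp and with random slide effects. The random block left 250 probes of the array called. With each animal left out the total-period counts were 8 to 14 higher and 10 to 17 lower, the first-period counts 49 to 57 and 30 to 34, and the second-period counts 39 to 45 and 45 to 51. Calls with an adjusted *P* near the threshold went past it, to at most 0.138 for TUBA4A (7 of 9 animals), 0.102 for MARK1 (8 of 9), 0.143 for HIF1AN (6 of 9), 0.0718 for FZD3 (5 of 9) and 0.0631 for KCNK13 (animal 5) by limma. FZD3 also lost its call without the animal block. Signal over background limits the dim members, at the early stage (NUAK1 and DIXDC1) as well as the later stages.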
